A study of Mus musculus with 6 samples.

Results

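The genes described here are 9 genes of B cells, plasma cells and antibody transport in mouse liver: Jchain, Mzb1, Cd79a, Cd79b, Ms4a1, Cd72, Cd22, Tnfrsf17 and Pigr. They were taken by gene symbol from probe sets whose array annotation gave exactly 1 symbol, and each of the 9 was measured by 1 probe set, out of 19938 genes with such a probe set. The choice of genes followed earlier results of these arrays, in which Jchain and Cd72 stood out in opposite directions between ARSB-null and control livers. The values of this contrast are therefore given as a description, without a test for the 9 genes. Liver RNA of 3 homozygous ARSB-null and 3 control samples was hybridized to 1 array each, all from untreated C57BL/6J males of 12 weeks. ARSB (arylsulfatase B) is a lysosomal sulfatase that acts on the sugar chains chondroitin 4-sulfate and dermatan sulfate. The ARSB-null mice came from a colony bred from purchased heterozygous animals, and the sources used here do not say whether the controls were littermates, so genotype and colony cannot be told apart. Besides cervical dislocation, the labels name ketamine and xylazine, while the methods name carbon dioxide. In each group the samples carry the numbers 4, 5 and 6, and values follow that order throughout. No source states outright that each array was a separate mouse, so p-values measure only the spread between these samples.

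B cells carry a surface antibody that signals through the chains CD79A and CD79B, and inhibitory receptors such as CD22 and CD72 restrain that signal. After activation, B cells can become plasma cells, which lose most of these surface proteins and secrete antibody. Plasma cells join IgA and IgM into polymers with the J chain, and epithelial cells, in rodents also hepatocytes, carry these polymers into bile and mucus through the polymeric immunoglobulin receptor, PIGR. A liver sample therefore holds B lineage transcripts from resident and circulating lymphocytes beside Pigr of its own parenchyma. In whole tissue, fewer cells of a type and less RNA per cell cannot be told apart.

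The signals were log2 values, quantile-normalized by the authors, with similar array medians (at most 6.60), and the number of arrays limits the precision. Arsb itself checked the labels: its brighter probe set read 7.63, 7.46 and 7.64 in ARSB-null livers, against 10.21, 10.23 and 10.21 in control livers. The hepatocyte list, which includes Alb, averaged 13.43 to 13.55 in ARSB-null and 13.44 to 13.50 in control livers, at the top of the scale. Both arrays numbered 4 lay away from the other 4 on the leading principal component of all probe sets with 1 symbol, which held 39.7% of the variance. There are no detection calls, and 5 of the 9 genes (Jchain, Cd79a, Ms4a1, Cd22 and Tnfrsf17) had a mean below the median of all probe sets, 6.54. With both arrays numbered 4 left out, the log2 difference was 1.21 for Jchain, -1.14 for Cd72, 0.19 for Cd22, 0.29 for Pigr, -0.34 for Ms4a1, 0.05 for Cd79b and 0.03 for Tnfrsf17, with Mzb1 and Cd79a given beside their full values.

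The promoters of 4 of the genes are shown, since Jchain and Cd72 had the largest difference in each direction, Cd22 is the inhibitory receptor whose difference had the other sign to that of Cd72, and Pigr is the epithelial gene of the group. Each run is the RefSeq promoter window on GRCm38.p6, from 250 bases before to 50 bases after the start of the gene, 5′ to 3′. Capitals mark E-boxes (CANNTG, read on both strands), the type of site bound by the E proteins that direct B cell development.
Jchain (chr5:88527848-88528147, minus strand): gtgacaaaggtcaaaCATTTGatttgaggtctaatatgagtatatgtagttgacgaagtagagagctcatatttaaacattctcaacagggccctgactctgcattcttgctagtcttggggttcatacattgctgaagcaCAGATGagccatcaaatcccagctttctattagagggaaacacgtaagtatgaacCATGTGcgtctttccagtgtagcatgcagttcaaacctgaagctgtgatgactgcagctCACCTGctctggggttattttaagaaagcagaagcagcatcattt
Cd72 (chr4:43454577-43454876, minus strand): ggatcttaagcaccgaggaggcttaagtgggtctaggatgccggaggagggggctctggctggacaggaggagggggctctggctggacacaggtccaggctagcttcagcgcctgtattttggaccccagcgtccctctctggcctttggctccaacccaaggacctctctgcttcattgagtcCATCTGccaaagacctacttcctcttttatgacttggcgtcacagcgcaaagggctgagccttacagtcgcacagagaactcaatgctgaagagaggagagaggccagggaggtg
Cd22 (chr7:30878979-30879278, minus strand): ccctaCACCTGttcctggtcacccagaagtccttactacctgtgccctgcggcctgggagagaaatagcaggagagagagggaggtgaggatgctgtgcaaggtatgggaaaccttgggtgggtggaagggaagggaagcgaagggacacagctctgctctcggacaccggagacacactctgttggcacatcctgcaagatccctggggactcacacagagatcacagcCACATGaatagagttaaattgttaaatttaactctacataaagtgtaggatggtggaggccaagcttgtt
Pigr (chr1:130826434-130826733, plus strand): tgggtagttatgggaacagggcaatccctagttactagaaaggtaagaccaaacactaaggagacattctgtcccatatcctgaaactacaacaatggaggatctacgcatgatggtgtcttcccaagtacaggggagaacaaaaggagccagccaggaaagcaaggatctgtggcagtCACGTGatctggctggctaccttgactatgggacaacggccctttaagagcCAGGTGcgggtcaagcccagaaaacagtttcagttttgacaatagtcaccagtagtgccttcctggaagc
Windows were read for 6 of the 9 genes, the other 2 being Cd79a and Tnfrsf17. All 6 held at least 1 E-box, as did 72.3% of 32817 promoter windows of the same length. The Jchain window held 4, beginning 235, 109 and 54 bases before the start and 5 bases after it, against an average of 1.39 over all windows. The palindrome CACGTG, which is also an E-box, was found in the window of Pigr alone among the 6, beginning 71 bases before the start, and in 7.15% of all windows. The PU.1 core GAGGAA stood in those of Cd72, Cd79a and Tnfrsf17 and in 28.3% of all. The EBF1 palindrome stood in that of Cd22, beginning 49 bases before the start, and in 0.905% of all. The octamer ATGCAAAT was in none of the 6 and in 1.74% of all. These are matches of letters and not shown to be sites.

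Among the genes of antibody assembly, Jchain stood higher in the ARSB-null livers and Mzb1 did not stand apart. Jchain, the chain that joins IgA and IgM into polymers, read 6.27, 6.34 and 6.10 in the ARSB-null livers, against 4.78, 5.20 and 4.83 in the controls. All 3 ARSB-null livers lay above all controls, with a gap of 0.90 on the log2 scale between the lowest ARSB-null and the highest control liver. The mean log2 signal was 6.24 ± 0.12 in ARSB-null and 4.94 ± 0.23 in control livers (SD, n = 3 each), a log2 difference of 1.30 (standard error 0.14), or 2.46-fold. Mzb1, a chaperone of the endoplasmic reticulum that helps to assemble antibodies in marginal zone B cells and plasma cells, read 6.61, 6.60 and 6.60 in ARSB-null livers and 6.77, 6.33 and 6.51 in controls. The controls lay on both sides of the ARSB-null livers, and the log2 difference was 0.07 (standard error 0.13). It was 0.18 without both arrays numbered 4.

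**Figure D1:**
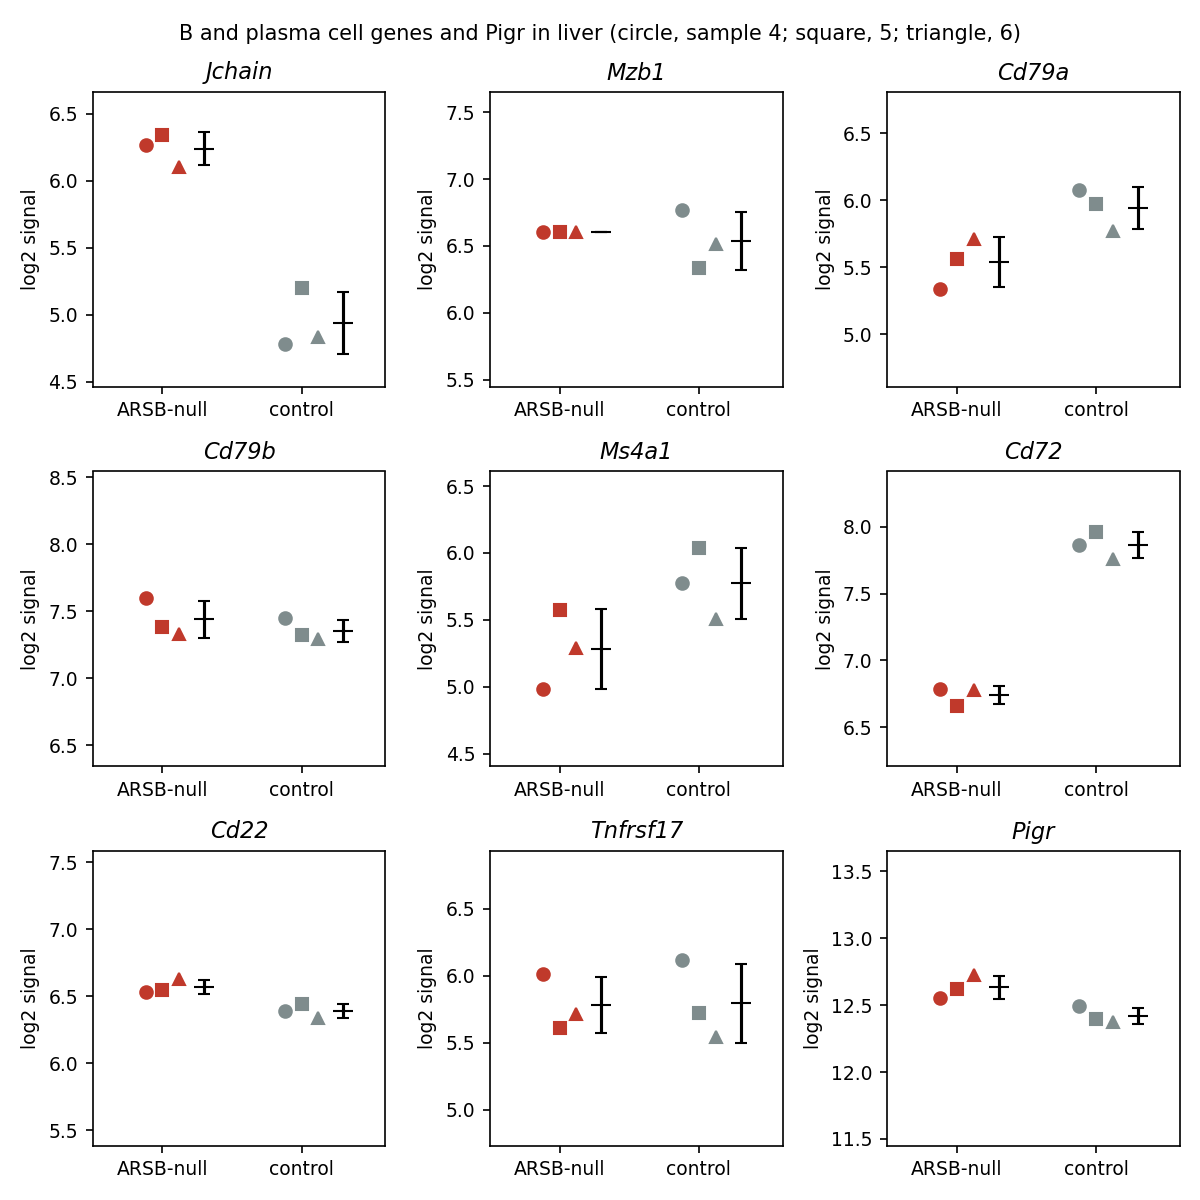
Log2 signal (vertical axes, each spanning the same range) of the 9 genes in each ARSB-null (red, left) and control (grey, right) liver, with the sample number given by the symbol; black marks are means and bars are SD (n = 3). Jchain lies between 6.10 and 6.34 in ARSB-null livers and at most 5.20 in controls, while Cd72 lies at or below 6.79 in ARSB-null livers and at or above 7.76 in controls.

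The signalling chains of the B cell receptor differed from each other. Cd79a, which encodes the chain Ig-alpha, read 5.34, 5.56 and 5.71 in ARSB-null livers, against 6.08, 5.97 and 5.77 in controls. The groups did not overlap, but the highest ARSB-null and the lowest control liver were only 0.06 apart. The log2 difference was -0.40 (standard error 0.14), and -0.24 without the arrays numbered 4. Cd79b, its partner Ig-beta, read 7.60, 7.38 and 7.33 in ARSB-null livers and 7.45, 7.32 and 7.29 in controls, with a log2 difference of 0.08 (standard error 0.11) and overlapping groups. Ms4a1, which encodes CD20, a membrane protein of B cells that plasma cells lack, read 4.98, 5.58 and 5.29 in ARSB-null livers, against 5.77, 6.04 and 5.51 in controls. The ARSB-null liver numbered 5 lay above the control numbered 6, so the groups overlapped. The log2 difference of Ms4a1 was -0.49 (standard error 0.20).

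The inhibitory receptors went opposite ways and by unequal amounts. Cd72, a C-type lectin that restrains B cell receptor signals, read 6.79, 6.66 and 6.78 in ARSB-null livers, against 7.87, 7.96 and 7.76 in controls. All 3 ARSB-null livers lay below all controls, with a gap of 0.98 between the groups, larger than the range within either. The mean log2 signal was 6.74 ± 0.07 in ARSB-null and 7.86 ± 0.10 in control livers (SD, n = 3 each), a log2 difference of -1.12 (standard error 0.10), so that the signal was 2.17-fold lower. Cd22, a sialic acid-binding lectin with the same restraining role, read 6.53, 6.54 and 6.63 in ARSB-null livers and 6.39, 6.44 and 6.34 in controls. The groups did not overlap, and the log2 difference was 0.18 (standard error 0.09), with a gap of 0.09 between them.

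Of the receptors at the end of the lineage and in the epithelium, Tnfrsf17 overlapped between the groups and Pigr did not. Tnfrsf17, which encodes BCMA, a survival receptor of plasma cells for the cytokine APRIL, read 6.01, 5.61 and 5.71 in ARSB-null livers and 6.12, 5.72 and 5.55 in controls. The liver numbered 4 was the highest in both groups, and the log2 difference was -0.02 (standard error 0.18). Pigr, the transporter of polymeric IgA and IgM, read 12.55, 12.62 and 12.72 in ARSB-null livers, against 12.49, 12.40 and 12.38 in controls. The groups were 0.06 apart at the nearest, and the log2 difference was 0.21 (standard error 0.10), or 1.16-fold.

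In all, 3 of the 9 genes (Jchain, Cd22 and Pigr) were higher in ARSB-null livers without overlap, where 5.14% of all 35556 probe sets were. A further 2 (Cd72 and Cd79a) were lower without overlap, where 6.78% of all probe sets were, and 4 overlapped. The median log2 difference of the 9 genes was 0.07, against 0.0015 over all probe sets. By limma with Benjamini-Hochberg adjustment over all probe sets, 0 of the 9 were past an adjusted p of 0.05, where 0.0197% of all probe sets were, 0.00562% higher and 0.0141% lower. By the analysis of variance that the methods name, 0 of the 9 were past it, where 0.00562% of all probe sets were. At an unadjusted p under 0.05, limma gave 4 of the 9 (Jchain, Cd72, Cd79a and Ms4a1), where 5.94% of all probe sets were. The analysis of variance gave 5, with Cd22 and Pigr in place of Ms4a1, where 6.56% of all were. Either way, 11.9% of all probe sets had groups without overlap. With the test kept to probe sets of 1 symbol, Jchain and Cd72 passed the adjusted threshold, as they did with array weights. Since the genes were chosen with this contrast known, nothing is read from these counts.

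The genes of the antibody chains themselves were read from every probe set that the annotation assigns to immunoglobulin loci and to nothing else. This set was chosen after its values were seen and so has no test. Of 29 such probe sets, the mean was higher in ARSB-null livers for 27 and lower for 2, where 50.4% of all probe sets had a higher one. The groups did not overlap for 10 of the 29, all higher in ARSB-null livers, against 5.14% of all probe sets. Of these 10, 8 were among the 14 probe sets that list several symbols, with a median log2 difference of 0.73, and 2 among the 15 with 1 symbol, with a median of 0.30. The median log2 difference of the 29 was 0.38, and averaged over the 29 probe sets the log2 signal was 5.95, 5.85 and 5.88 in ARSB-null livers and 5.43, 5.54 and 5.42 in controls. By limma 0 of the 29 were past an adjusted p of 0.05; 10 had an unadjusted p under 0.05, where 5.94% of all probe sets had, and 7 by the analysis of variance, where 6.56% of all had. Without both arrays numbered 4, the mean was higher for 26 and lower for 3, with 12 higher and 1 lower without overlap. With these 4 arrays, 21.8% of all probe sets were higher and 19.1% lower without overlap. Probe sets of these loci share sequence, so they are not independent of each other.

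All 10 probe sets of the heavy chain locus had a higher mean in ARSB-null livers, with a median log2 difference of 0.38. For the light chains, 15 of 17 of the kappa locus and both of the lambda locus had a higher mean. Ighm, the heavy chain of IgM, had 3 probe sets, with log2 differences of 0.28, 0.40 and 0.35. The one with a difference of 0.40 did not overlap, at 6.47, 6.25 and 6.36 in ARSB-null livers and 5.97, 5.99 and 5.93 in controls. The brightest, with a difference of 0.28, did overlap, at 7.11, 6.60 and 7.02 in ARSB-null livers and 6.89, 6.45 and 6.53 in controls. Igha, the heavy chain of IgA, read 6.26, 6.74 and 6.26 in ARSB-null livers, against 6.07, 6.00 and 5.93 in controls on its brighter probe set, a log2 difference of 0.42 (standard error 0.15). Ighg3, of the IgG3 subclass, differed by 0.09 and overlapped. The largest difference of the 29, 0.98, belonged to a probe set that lists several kappa variable genes, which read 6.38, 6.54 and 6.29 in ARSB-null livers and 5.43, 5.47 and 5.36 in controls.

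Some kappa variable genes were high in 1 or 2 of the ARSB-null livers, and the groups of the 3 given here overlapped. They were picked after their values were seen. The first was high in the ARSB-null livers numbered 4 and 5, at 5.71, 5.90 and 5.20 in ARSB-null livers and 5.11, 5.12 and 5.21 in controls. The second was highest in the ARSB-null liver numbered 5, at 5.17, 5.95 and 4.61 in ARSB-null livers and 4.79, 4.89 and 4.91 in controls. The third was highest in the ARSB-null liver numbered 6, at 6.41, 6.37 and 7.51 in ARSB-null livers and 6.63, 6.47 and 6.28 in controls. A second probe set of the third gene did not show this, at 6.34, 6.46 and 6.62 in ARSB-null livers and 6.83, 6.55 and 6.24 in controls, with a log2 difference of -0.07.

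**Figure D2:**
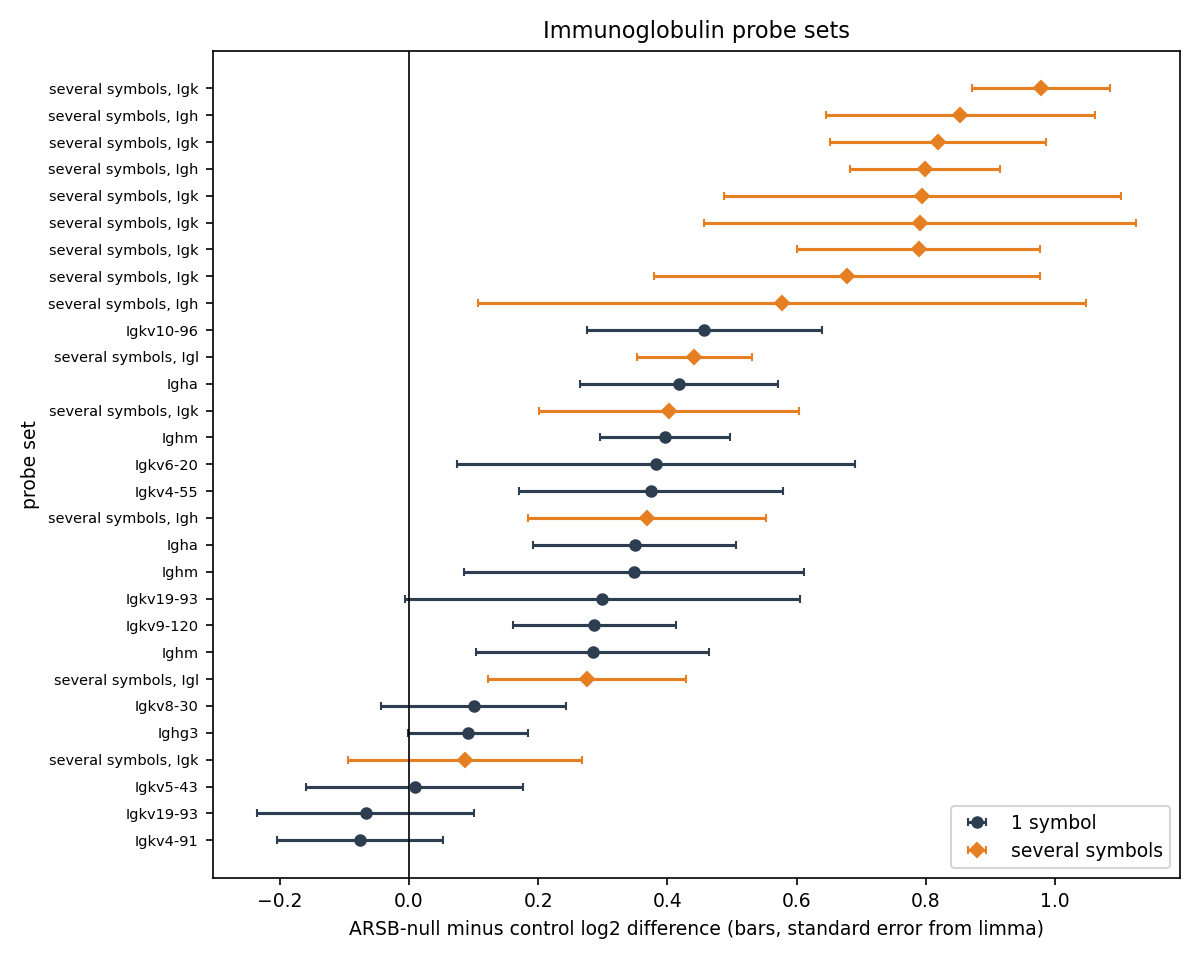
ARSB-null minus control log2 difference (horizontal axis) of the 29 immunoglobulin probe sets (vertical axis), with standard errors from limma as bars; circles are probe sets with 1 gene symbol and diamonds those with several. All but 2, both of kappa variable genes, lie above 0, and the highest is at 0.98.

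The wider B lineage was described by 9 lists of other genes, of which 99 of 120 had a probe set with 1 symbol. By limma 0 of the 99 were past an adjusted p of 0.05, and 0 by the analysis of variance. At an unadjusted p under 0.05 limma gave 5 higher and 13 lower, where 2.75% and 3.19% of all probe sets were, and the analysis of variance gave 17, where it gave 6.56% of all. The groups did not overlap for 10 genes higher and 19 lower in ARSB-null livers, where they did not for 5.14% and 6.78% of all probe sets, and the median log2 difference of the 99 was -0.04. None of these 29 genes passed the adjusted threshold. Of antibody folding and the secretory pathway, which hepatocytes use as well, 6 were lower and 0 higher. For immunoglobulin transport and Fc receptors these counts were 4 and 1. The pooled counts are therefore not read as those of B lineage cells alone. The same shares, 5.14% higher and 6.78% lower, apply to the counts without overlap of each list below.

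Of 25 genes of B cell receptor signalling and the B cell surface, 4 were higher and 5 lower without overlap, with a median log2 difference of -0.06. Cd83, a surface protein of activated B and dendritic cells, read 7.32, 7.45 and 7.31 in ARSB-null livers and 6.81, 7.02 and 6.66 in controls (log2 difference 0.53, adjusted p = 0.501 from limma). Bank1, a scaffold of B cell receptor signalling, read 6.73, 6.91 and 6.52 in ARSB-null livers and 7.38, 7.49 and 6.95 in controls (-0.55, adjusted p = 0.702 from limma). Blnk, the linker protein downstream of the receptor, differed by 0.34, and Ly86, which pairs with the toll-like receptor homologue CD180, by -0.67 with overlapping groups. Genes of the same pathway thus lay on both sides of 0, as the chains Cd79a and Cd79b did.

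Of 11 transcription factors of B cells, 1 was lower without overlap, Bcl11a (log2 difference -0.23). Bcl6, the factor of the germinal center, read 7.57, 7.44 and 8.46 in ARSB-null livers and 10.21, 8.41 and 8.20 in controls, so that its log2 difference of -1.11 (standard error 0.55) came with overlapping groups and a control numbered 4 far above the rest, without which it was -0.48. Mef2c and Irf4 differed by -0.24 and -0.25 and overlapped, and without the control numbered 4 Irf4 stood at -0.031. Of 10 genes of B cell precursors, Rag2, of the recombinase, was lower (-0.34) and Cd93 higher (0.19) without overlap. The mean of Rag2 was only 3.90 in ARSB-null and 4.24 in control livers, against a median of 6.54 over all probe sets. Without detection calls, its expression here is not shown. Vpreb1 (-0.43) and Ly6d (-0.20) overlapped and stood at -0.19 and -0.083 without the control numbered 4. All 3 measured genes of the BAFF and APRIL system, which feeds survival signals to B and plasma cells, overlapped: Tnfsf13b (0.23), Tnfrsf13b (0.13) and Tnfrsf13c (0.08).

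The 8 measured genes of plasma cell identity had a median log2 difference of 0.01, with 1 higher and 2 lower without overlap. Slamf7, a surface receptor of plasma cells, NK cells and macrophages, read 5.90, 6.02 and 6.03 in ARSB-null livers and 5.39, 5.26 and 5.44 in controls (log2 difference 0.62, adjusted p = 0.237 from limma). Xbp1, the factor that expands the secretory apparatus of plasma cells and also of hepatocytes, read 10.82, 10.94 and 10.76 in ARSB-null livers and 11.42, 11.15 and 11.17 in controls (-0.41, adjusted p = 0.621 from limma). Tent5c, a poly(A) polymerase that stabilizes antibody transcripts in plasma cells, differed by -0.66, and Eaf2 by 0.15 with overlap. The ARSB-null livers thus had a higher Jchain and a lower Xbp1 signal, both without overlap.

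Of 20 genes of antibody folding and the secretory pathway, which hepatocytes use as well, none was higher and 6 were lower without overlap. Over all probe sets, 5.14% were higher and 6.78% lower without overlap. The median log2 difference of the 20 genes was -0.09. Dnajb9, a co-chaperone of the endoplasmic reticulum, read 10.41, 10.56 and 10.53 in ARSB-null livers and 11.26, 11.20 and 11.16 in controls (log2 difference -0.71, adjusted p = 0.195 from limma). Ero1b, an oxidase that forms disulfide bonds, and Tram2 differed by -0.47 and -0.29 without overlap, and Txndc11 by -0.31 with overlap. Of 11 genes of immunoglobulin transport and Fc receptors, 1 was higher and 4 lower without overlap. Tfrc, the transferrin receptor, which also binds polymeric IgA1 in humans, read 6.55, 6.92 and 7.43 in ARSB-null livers and 7.64, 8.05 and 7.72 in controls (-0.84, adjusted p = 0.621 from limma). Rab3d (-0.32), Asgr2, a subunit of the asialoglycoprotein receptor (0.20), and Fcer1g, the common Fc receptor chain (0.26, overlapping), were the next by p.

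Of 8 ligands and partners of CD72 and CD22, 2 were higher and 0 lower without overlap. Sema4d, which encodes the CD72 ligand CD100, read 7.31, 6.83 and 6.87 in ARSB-null livers and 6.73, 6.64 and 6.64 in controls (log2 difference 0.33, adjusted p = 0.847 from limma). St6gal1, the enzyme that makes the sialic acid linkage bound by CD22, differed by 0.10 without overlap. Cmah, which in mice modifies that sialic acid, and Ptpn6, the phosphatase SHP1 that both receptors recruit, differed by -0.18 and -0.07 with overlap.

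**Figure D3:**
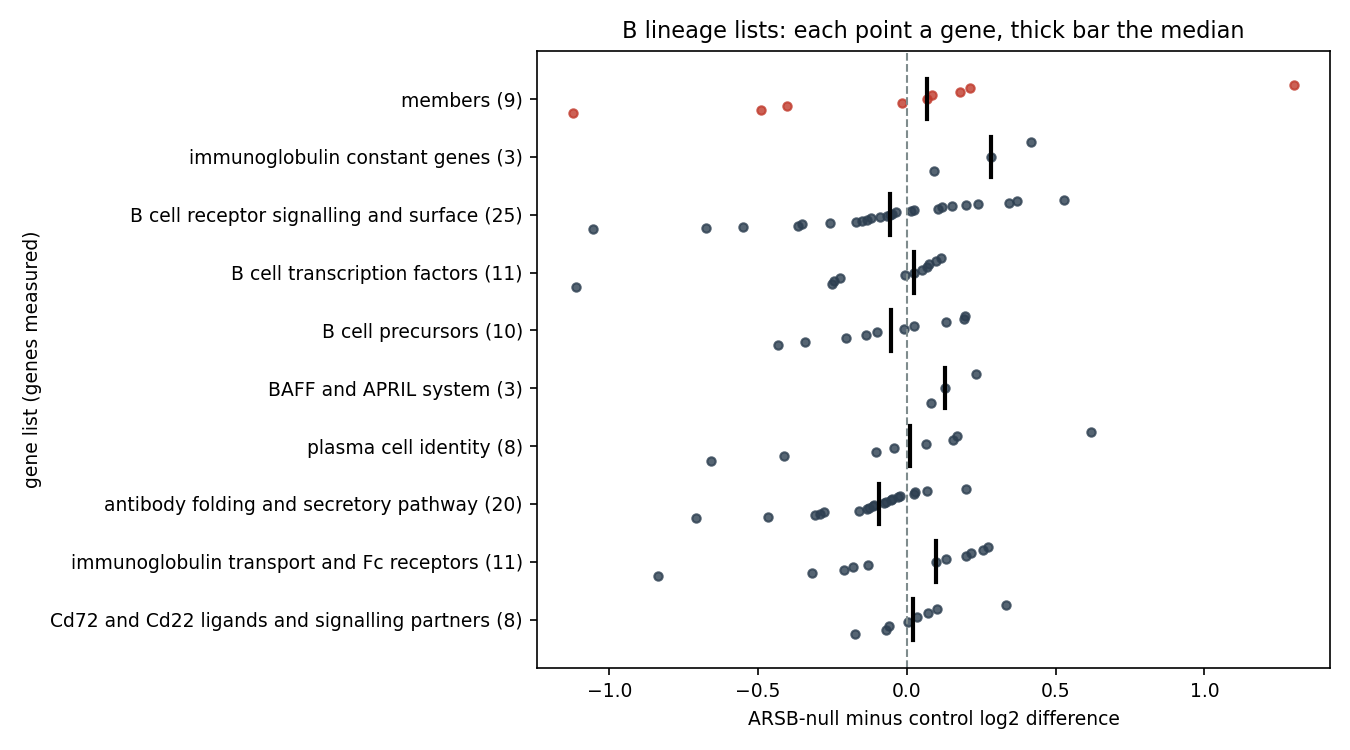
ARSB-null minus control log2 difference (horizontal axis) of the 9 genes (red) and of the genes of 9 wider lists (dark), with the number measured in parentheses; thick bars are medians and the dashed line is the median of all probe sets, 0.0015. Jchain at 1.30 and Cd72 at -1.12 are the outermost points of the plot.

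Other cell types moved with the groups to different degrees, and their part in the values above was not tested. Over all probe sets, 5.14% were higher and 6.78% lower without overlap, and some counts here lie near these shares. Of 18 genes of T and NK cells, 1 was higher (Ncr1, 0.29) and 1 lower (Eomes, -0.29) without overlap; their mean log2 signal was 5.97 to 6.12 in ARSB-null and 5.90 to 6.23 in control livers. Of these genes, Klrb1c (0.30) and Cd3g (-0.19) overlapped. The 3 measured erythroid genes averaged 7.82 to 8.11 in ARSB-null and 8.56 to 8.93 in control livers, with Slc4a1 at -1.56, Alas2 at -0.81 and Klf1 at 0.01. The 10 neutrophil genes averaged 5.62 to 5.69 in ARSB-null and 5.75 to 5.87 in control livers, with 3 lower without overlap (Ngp, -0.50, Ltf, -0.31, and Retnlg, -0.27) and S100a8 overlapping (-0.21). The 5 genes of plasmacytoid dendritic cells averaged 7.18 to 7.29 in ARSB-null and 7.38 to 7.54 in control livers, among them Ccr9 (-0.84), Tcf4 (-0.14), Bst2 (-0.08) and Siglech (-0.03). The 16 macrophage genes averaged 8.90 to 9.01 in ARSB-null and 8.86 to 9.17 in control livers, with 3 higher and 2 lower without overlap (among them Cd68, 0.53, C1qa, 0.39, Folr2, -0.75, and Cd163, -0.77). The 6 cholangiocyte genes, markers of the bile duct cells that also carry Pigr, averaged 6.30 to 6.48 in ARSB-null and 6.37 to 6.52 in control livers, with Sox9 at -0.35, Cldn7 at 0.20, Krt7 at -0.12 and Epcam at 0.08. Of the 11 hepatocyte genes, 2 were higher without overlap, among them Ahsg (0.13), and Cyp7a1 (-0.26), Hnf4a (-0.17) and Tat (-0.17) overlapped. By limma and by the analysis of variance 0 genes of these 7 lists were past the adjusted threshold, while at an unadjusted p under 0.05 limma gave 2 higher and 11 lower of their 69 genes, where 2.75% and 3.19% of all probe sets were, and the analysis of variance gave 11, where it gave 6.56% of all.

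Across the 6 livers the 9 genes fell into patterns that mostly restated the difference between the groups. Jchain correlated with Cd22 at r = 0.90 and with Pigr at 0.79, and with Cd72 at -0.96 and Cd79a at -0.82; Cd72 correlated with Cd79a at 0.83 and with Ms4a1 at 0.74. These are Pearson correlations over 6 arrays, given as a description. After each group's mean was taken out, Jchain and Cd72 stood at 0.38, so that their opposition was between the groups and not among the livers within them. Within the groups Cd79a stood at 0.93 with Pigr and 0.75 with Cd22, but over the 6 livers at -0.45 and -0.56. Cd79b stood at 0.87 with Tnfrsf17 within the groups and 0.77 over the 6 livers. Without both arrays numbered 4, the groups' means kept in, that pair stood at 0.19. These within-group values are among the highest of all pairs. Ms4a1 and Cd79a, both of mature B cells, stayed together in both views, at 0.84 over the 6 livers and 0.63 within the groups. Cd79b, the partner of Cd79a, went against both. Over the 6 livers it stood at -0.52 with Cd79a and -0.56 with Ms4a1, and within the groups at -0.35 and -0.42. A shared B cell pattern is therefore not read from the first pair.

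**Figure D4:**
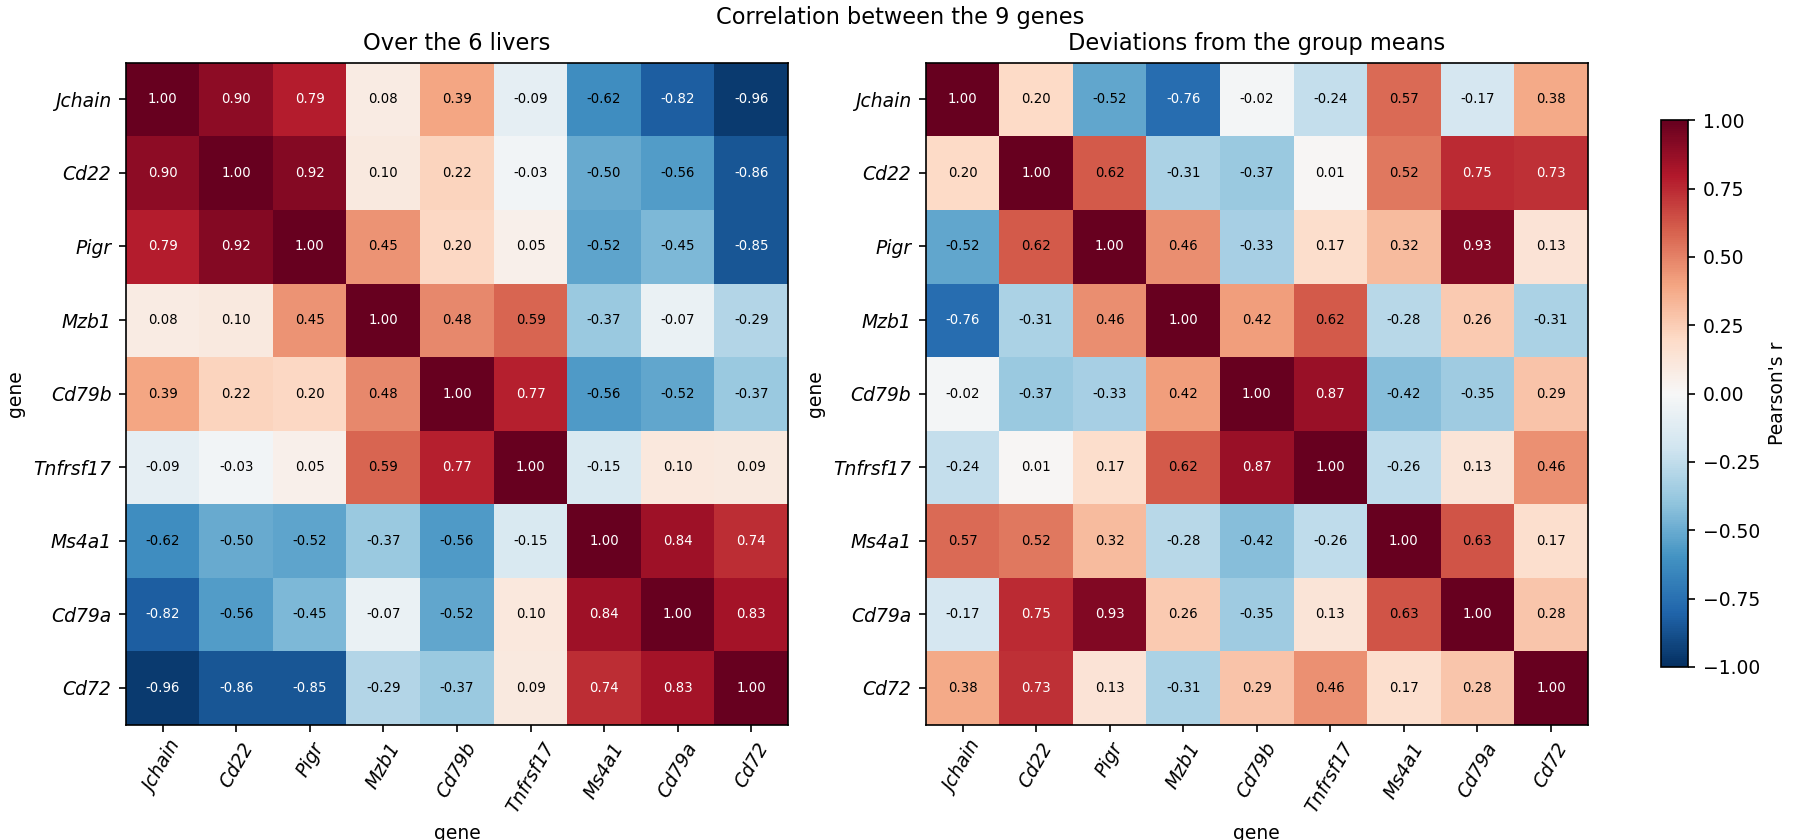
Pearson's r between the 9 genes (both axes) over the 6 livers (left) and over the deviations from the group means (right), with red for positive and blue for negative values. Jchain and Cd72 are at -0.96 on the left and 0.38 on the right.

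The genes most like Jchain over the 6 arrays, among 9026 of the more variable genes, were Gltp, a glycolipid transfer protein (r = 0.993), Fcna, ficolin A of macrophages (0.990), Lrtm1 (0.989), Hpgds, a prostaglandin D synthase (0.988), and Agxt2, a mitochondrial aminotransferase (0.988). None of these 5 is an antibody gene, and their log2 differences were 0.39, 0.53, 1.07, 1.13 and 0.32. The search took only probe sets with 1 symbol, so the 14 immunoglobulin probe sets with several symbols could not be found by it. The absence of antibody genes is therefore not read as a result. The genes most like Cd72 were Golm1, a Golgi membrane protein (r = 0.998), Arsb itself (0.995), Saa2 (0.994), Cd207, the lectin langerin (0.991), and Saa1 (0.988). Their log2 differences were -0.77, -2.64, -4.10, -0.66 and -3.25, and Saa1 and Saa2 encode acute-phase proteins of the liver. The groups did not overlap for any of these 10 genes, where they did not for 11.9% of all probe sets. Their r therefore largely restated the difference between the groups, and no r within the groups was taken. With both arrays numbered 4 left out, r was at least 0.986 for each of these 10 genes. They were picked for their r over arrays that include the remaining ones, so this value is no check of the likeness. By ranks over the 6 arrays, Spearman's rho was lowest for Fcna with Jchain and Saa1 with Cd72, at 0.77 each.

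Of the genes that lie around Jchain and Cd72 on the chromosomes, most overlapped between the groups. Of the 10 nearest measured genes around Jchain on chromosome 5, 5 on each side, log2 differences ran between -0.34 (Dck) and 0.14 (Utp3), and 1 of 10 (Dck) did not overlap, where 11.9% of all probe sets did not. Enam, next to Jchain, differed by -0.13. Around Cd72 on chromosome 4, they ran between -0.63 (Unc13b) and 0.18 (Rmrp), and 1 of 10 did not overlap: Unc13b was lower in ARSB-null livers, as Cd72 was. The direct neighbours of Cd72, Tesk1 and the lymphocyte adaptor Sit1, differed by -0.01 and 0.0019. By limma 0 of these 20 genes were past an adjusted p of 0.05, and 2 (Dck and Unc13b) had an unadjusted p under 0.05, where 5.94% of all probe sets had. The analysis of variance gave 2 as well, where it gave 6.56% of all. The neighbours were chosen by their order in RefSeq's GRCm38.p6, after the values of Jchain and Cd72 were known.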

How the data were processed

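The deposited table gives a log2 value for each probe set on each array. According to the methods, the authors used quantile normalization and then summarized the probes; RMA and Partek appear in the submitters' processing notes with no version. Quantile normalization would hide a change shared by most genes. A second-generation mouse gene array is named in the methods, but the rows matched GEO's annotation of its first-generation predecessor, which gave the symbols: 21789 of 35556 probe sets carried 1 symbol, 1621 several, and 12146 had no entry. All probe sets were fitted together with limma (version 3.58.1, R 4.3.3; lmFit and eBayes, two-sided, Benjamini-Hochberg adjustment, threshold 0.05), after the procedure was tested on simulated data. A gene was read from its brightest probe set by mean. The alternatives were the methods' analysis of variance, a replicate block, array weights, a trended robust prior, centred medians, other sets of probe sets, a looser threshold and arrays left out.

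The 9 genes and all lists were chosen with earlier results of these data known. Genes named are the 9 genes, up to 4 per list with the smallest p, the 5 most like Jchain and the 5 most like Cd72 (predicted genes and small RNAs left out), and Arsb; any other was chosen after its values were seen. Deviations from the group means correlated at 0.396, 0.159 and 0.193 between same-numbered samples 4, 5 and 6, all above 0.1. But ARSB-null 6 with control 5 stood at 0.220, above the same-numbered values of 5 and 6. Only number 4 thus stood out, and no source tells what a number stands for. The main fit did not pair the samples, and the replicate block was run only as an alternative. Promoter sequences and chromosome order are RefSeq's (GRCm38.p6).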

Additional observations from a re-analysis of the deposited data

How the results depend on the processing

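The log2 differences of the 9 genes moved to different degrees under the alternatives. Cd79a ran between -0.49 and -0.24, where its SD was 0.19 in ARSB-null and 0.16 in control livers. Jchain ran between 1.21 and 1.43 and Cd72 between -1.17 and -1.07, while Mzb1 (-0.04 to 0.18) and Tnfrsf17 (-0.14 to 0.15) took both signs. Against 0 higher and 0 lower among the 9 genes, testing only probe sets with 1 symbol gave 1 (Jchain, adjusted p = 0.00669 from limma) and 1 (Cd72, 0.00332), as did the same with the replicate block, array weights, and an adjusted p under 0.10. The brighter part of the probe sets and a trend with a robust prior each gave 1 lower, Cd72. Over all alternatives the adjusted p was 0.00244 to 0.469 for Jchain and 0.00332 to 0.387 for Cd72. In the main limma fit it was 0.0990 for Jchain and 0.0553 for Cd72. The 9 genes were chosen with this contrast known, so these adjusted p-values are a description and not a test. Of the wider lists, 1 gene was lower with 1-symbol probe sets (Dnajb9), and with the block as well 1 was higher (Slamf7) and 1 lower.

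Over all probe sets, 2 were higher and 5 lower. The replicate block gave 1 and 3 and changed no call among the 9 genes or the wider lists. The counts, higher and lower, were 27 and 33 with 1-symbol probe sets, and 43 and 63 with these and the block. They were 5 and 7 with the brighter part, 14 and 14 with array weights, and 8 and 8 at an adjusted p under 0.10. With the trend they were 3 and 7, with centred medians 1 and 6, and with the analysis of variance 1 and 1. Without the arrays numbered 4 they were 1 and 0. With any single array left out, 1 was higher and 3 to 6 were lower, and 0 of the 9 genes or of the wider lists passed. Fewer probe sets enter the 1-symbol fits, and the causes of the differing counts were not tested.

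Of 61 genes named from the lists, none past the threshold, 28 moved by over 1.5 times or changed sign with a single array left out. Signs also changed for Irf4 (0.033 with array weights), Cd3g (0.041 without the arrays numbered 4) and Klf1 (-0.026 with centred medians and -0.034 without the arrays numbered 4). With single arrays left out, Siglech ran from -0.080 to 0.0097, Klf1 from -0.039 to 0.088 and Epcam from -0.062 to 0.18. Leaving out the arrays numbered 4 was chosen with earlier results known.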
